A study of Homo sapiens with 4 samples.

Results

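The MYC and MAX network was described in MV4-11 cells as the 10 genes MYC, MAX, MXD1, MXD3, MXD4, MXI1, MNT, MGA, MLX and MLXIP. The choice was made by name from textbook membership, with earlier results of these data known. These members were 10 of the 16490 genes and held 22 of the 28581 RefSeq transcripts with values. MV4-11 is a human acute myeloid leukemia (AML) line with myelomonocytic features. To ask which genes respond to loss of CEBPG, a leucine-zipper transcription factor of the CCAAT enhancer binding family, the cells were infected with pLKO.1-puro lentivirus and selected with puromycin. The RNA-seq series holds 2 libraries of cells carrying the control hairpin sh-NC, labelled CEBPG presence, and 2 libraries of cells carrying the hairpin sh-CEBPG#3. All 4 libraries therefore come from infected and selected cells of 1 line, and the knockdown rests on 1 hairpin. No source used here states that a group's libraries were grown as separate cultures, so the p-values measure only the spread between these samples, which may be technical.

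MAX is the common partner of the network. It pairs with MYC on the E-box to activate genes of ribosome making, metabolism and the cell cycle, and it pairs with the MXD proteins, MXI1 and MNT on the same site, where they bring in the SIN3-HDAC corepressor. MGA also binds MAX and is part of a Polycomb complex called PRC1.6. MLX pairs with MLXIP, also known as MondoA, which responds to glucose, and MLX can also bind some MXD proteins and MNT. In myeloid cells MYC is known to fall and MXD1 to rise during maturation, and MYC is a well-known driver of AML growth.

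In cells carrying sh-CEBPG#3, MYC mRNA was at 59.3% of the control level, while MXD1 mRNA was at 147% and MXI1 mRNA at 124%. MGA and MLX were lower, at 77.3% and 84.2% of control. MAX, MXD3, MXD4, MNT and MLXIP did not pass the test. Thus 5 of the 10 members were called, 2 higher and 3 lower. Among all 12142 genes tested, 42.2% were called, 18.5% as higher and 23.8% as lower, so the share of members called (50%) lay near that of genes at large. Whichever library was left out, the log2 fold change lay between -0.85 and -0.65 for MYC and between 0.45 and 0.59 for MXD1. With either sh-CEBPG#3 library left out, fewer members and also fewer genes at large were called. A gene was called when its Benjamini-Hochberg adjusted p from limma was under 0.05, on log2 of FPKM + 1. FPKM are fragments scaled by transcript length and by the mapped fragments of a library, and the values of a gene's transcripts were summed. The study set an unadjusted p under 0.05 with a change above 2-fold, on results of another test, DESeq2. With this threshold on the limma fit, 0 of 10 members and 3.41% of genes passed, so these are not the study's own numbers. An unadjusted p under 0.05 alone was met in limma by 6 of the 10 members and by 6139 of the 12142 genes. The 2 libraries of each group did not overlap for 7 of the 10 members and for 71.7% of the genes tested.

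**Figure D1:**
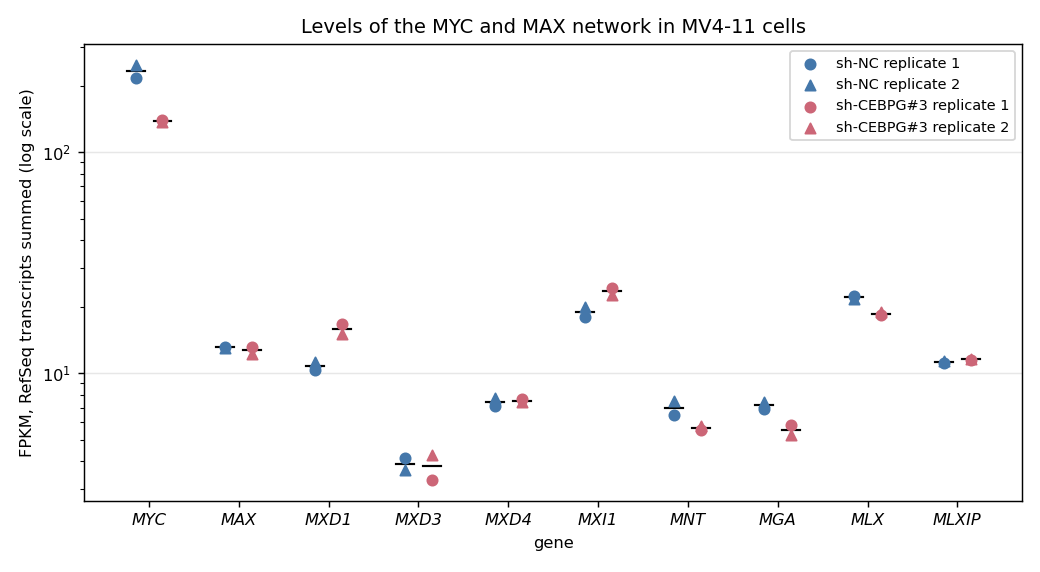
Summed FPKM of the 10 network genes (log axis) in the 2 sh-NC libraries (blue) and the 2 sh-CEBPG#3 libraries (red), with black lines at the group means. MYC lies far above the other members in every library and falls from a mean of 233 to 138 FPKM, while MXD1 and MXI1 lie higher in both knockdown libraries.

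The level of the targeted gene was looked at first. In sh-NC cells CEBPG stood at 30.4 and 33.6 FPKM, and with sh-CEBPG#3 it stood at 19.2 and 17.1 FPKM. Its log2 fold change was -0.78 (SE 0.09, limma adjusted p = 8.88e-05), and 56.8% of the control level remained. FPKM totals ranged from 364353 to 389766 per library, and sequencing depth is unknown. Of the 11 markers listed for MV4-11 cells, 10 had at least 1 FPKM in every library. CD14, a monocyte marker, was near 0 in the controls (0.187 and 0 FPKM) and had 1.09 and 0.697 FPKM after knockdown. The summed level of the list was 927 and 1007 FPKM in the controls and 3582 and 3408 FPKM after knockdown. LYZ, the lysozyme of monocytes and granulocytes, made up most of the sum, with 567 and 610 against 3126 and 2982 FPKM. CSF1R, the receptor for macrophage colony-stimulating factor, also stood higher after knockdown (4.41 and 4.52 against 8.42 and 8.60 FPKM), while MEIS1, a homeobox gene of AML blasts, stood lower (6.65 and 7.34 against 3.42 and 3.29 FPKM). MPO, the myeloperoxidase of granulocyte precursors, stood higher as well (70.7 and 80.4 against 118 and 115 FPKM). ITGAM, an integrin of mature myeloid cells, had 7.74 and 7.85 against 8.70 and 8.02 FPKM, and the receptor gene FLT3 had 67.6 and 75.0 against 66.0 and 62.8 FPKM. The 3 B cell markers with values summed to between 2.35 and 3.24 FPKM in the 4 libraries. Of the epithelial list, KRT8 and KRT18 were measured and summed to between 12.1 and 16.01 FPKM. KRT8 stood higher after knockdown (2.29 and 2.35 against 6.26 and 6.19 FPKM), and KRT18 had 9.77 and 10.6 against 9.75 and 8.57 FPKM. No values were found under the names of the T cell and erythroid markers, so their levels are unknown here. The part of these myeloid markers in the changes of the network was not tested. In bulk samples, fewer cells of a type and less RNA per cell cannot be told apart.

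MAX dimers bind the E-box, and CEBPG binds CCAAT enhancer motifs as a dimer with other CEBP or ATF proteins, so the promoters of the members were searched for these letters. The search covered 250 bases before to 50 bases after each transcription start in the RefSeq promoter table (GRCh38.p14), on both strands. The table holds 9 of the 10 members. It has no promoter of MYC, so nothing is known here of motifs in the MYC promoter. The E-box CACGTG was found for 3 of the 9 (MXD4, MNT and MLX), and for 8.78% of all 27305 genes and 7.26% of the 35116 promoters in the table. The CEBP motif TTGCNNAA was found for 1 of the 9 (MXI1), and for 12.7% of genes and 10.5% of promoters. The CEBP-ATF composite TGATGNAA was found for 0 of the 9, and for 4.46% of genes and 3.62% of promoters. No run of letters matches both CEBP motifs, and the E-box lies within neither. The matches are shown because these are the letters by which the network's own dimers and the CEBP family are known to bind. They are descriptions of the sequence, since no binding was measured. Each is printed 5′ to 3′ along the gene's strand, with the motif in capitals, and the E-box of MLX lies nearest to its start, with its first base 50 bases before it.
MXD4, chr4:2262312-2262359, minus strand, E-box 238 bases before the start: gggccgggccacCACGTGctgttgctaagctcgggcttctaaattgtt
MNT, chr17:2401218-2401283, minus strand, E-box 193 bases before the start: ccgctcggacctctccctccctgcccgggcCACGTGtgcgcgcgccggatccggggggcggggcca
MLX, chr17:42567020-42567085, plus strand, E-box 50 bases before the start: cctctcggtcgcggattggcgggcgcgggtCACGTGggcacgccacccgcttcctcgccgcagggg
MXI1, chr10:110225809-110225876, plus strand, CEBP motif 157 bases before the start of the third of its 3 listed promoters: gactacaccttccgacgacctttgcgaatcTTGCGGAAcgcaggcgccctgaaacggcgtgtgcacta

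Levels within the network were set side by side first, since FPKM is scaled by transcript length. MYC alone made up 69.6% of the network's summed FPKM in the controls and 56.8% after knockdown. The other 9 members lay between 3.88 and 22.1 FPKM in the controls, in the order MLX, MXI1, MAX, MLXIP, MXD1, MXD4, MGA, MNT and MXD3. Neighbours whose libraries overlapped in this order were MLXIP and MXD1, MXD4 and MGA, and MGA and MNT. After knockdown MXI1 stood above MLX, and MXD1 moved from place 6 to place 4, above MAX and MLXIP. There, MNT and MGA were the neighbours that overlapped.

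MYC, the activating partner of MAX, was measured by the single RefSeq transcript NM_002467. The control libraries held 217 and 249 FPKM, and the knockdown libraries 140 and 136 FPKM. Both knockdown libraries lay well below both controls and close to each other. The means were 233 ± 22.7 and 138 ± 2.21 FPKM (SD, n = 2). The log2 fold change was -0.75 (SE 0.08, 95% interval -0.92 to -0.57, limma adjusted p = 6.48e-05). MYC passed the test in 14 of 14 alternative settings, with log2 fold changes between -0.85 and -0.65. By level it ranked 183 of 16490 genes in the controls, within the top 1.11%, and 337 after knockdown, within the top 2.04%. Among the 466 genes whose mean reached 100 FPKM, 51.5% were called, with a median SE of 0.07 on the log2 scale against 0.10 for all genes tested. MYC therefore belongs to an abundance class in which smaller changes reach the threshold.

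The genes most like MYC in level over the 4 libraries were TRIR, FARSA and TKT, by the root mean square difference of log2 values. TRIR, which encodes an RNase described as bound to the telomerase RNA, differed from MYC by 0.11 and went from 214 to 142 FPKM. FARSA, the alpha subunit of phenylalanyl-tRNA synthetase, differed by 0.13 and went from 228 to 122 FPKM. TKT, the transketolase of the pentose phosphate pathway, also differed by 0.13 and went from 222 to 156 FPKM. Since they were chosen for their likeness to MYC over the same libraries, their lower level after knockdown follows from the choice.

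MAX, the partner shared by MYC, the MXD proteins, MXI1, MNT and MGA, had 13.2 and 13.0 FPKM in the controls and 13.2 and 12.3 FPKM after knockdown. The groups overlapped. Its log2 fold change was -0.04, with a 95% interval from -0.22 to 0.14 (limma adjusted p = 0.726), and a change within that interval cannot be told from none here.

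Among the antagonists of MYC, MXD1 showed the largest change. Its level was 10.4 and 11.2 FPKM in the controls, and 16.7 and 15.1 FPKM after knockdown. Both knockdown libraries lay above both controls. The means were 10.8 ± 0.608 and 15.9 ± 1.15 FPKM (SD, n = 2), and the log2 fold change was 0.52 (SE 0.09, 95% interval 0.32 to 0.71, limma adjusted p = 0.00119). MXD1 is listed under 1 transcript, NM_002357. When every transcript was tested singly, among 18624 rows, its adjusted p was 0.0540.

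MXI1, also called MXD2, followed in the same direction. It had 17.9 and 20.0 FPKM in the controls and 24.4 and 22.7 FPKM after knockdown, with means of 18.9 ± 1.46 and 23.6 ± 1.25 FPKM (SD, n = 2). The groups did not overlap. Its log2 fold change was 0.30 (SE 0.09, 95% interval 0.11 to 0.49, limma adjusted p = 0.0168). The call was lost without sh-NC replicate 1 (0.23, adjusted p = 0.0588), without sh-CEBPG#3 replicate 1 (0.25, adjusted p = 0.121), with no filter on low genes (adjusted p = 0.0537), and for its most abundant transcript alone (0.34, adjusted p = 0.102).

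MXD3 and MXD4, the other members of the MXD group, were listed at near-equal levels in both groups. MXD3 had 4.12 and 3.64 FPKM in the controls and 3.29 and 4.29 FPKM after knockdown. MXD4 had 7.14 and 7.71 against 7.62 and 7.43 FPKM. For both genes the groups overlapped. The log2 fold change of MXD3 was -0.03 (95% interval -0.30 to 0.24, limma adjusted p = 0.855) and that of MXD4 was 0.02 (95% interval -0.18 to 0.22, limma adjusted p = 0.892). The sign of both small values turned in some alternative settings.

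MNT, the antagonist that most cell types express, had 6.499 and 7.505 FPKM in the controls and 5.52 and 5.80 FPKM after knockdown. The groups did not overlap, although the controls lay farther from each other than the lower control lay from the higher knockdown library. The log2 fold change was -0.26 (SE 0.10, 95% interval -0.48 to -0.04), and the adjusted p of 0.0547 in limma missed the threshold. It passed with a filter at a mean of 1 FPKM (adjusted p = 0.0475), with totals scaled to be equal (-0.28, adjusted p = 0.0271) and without sh-NC replicate 1 (-0.35, adjusted p = 0.0250).

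MGA, the largest protein of the network and the only member that also carries a T-box domain, had 6.90 and 7.44 FPKM in the controls and 5.82 and 5.27 FPKM after knockdown. Both knockdown libraries were lower than both controls. The means were 7.17 ± 0.386 and 5.54 ± 0.390 FPKM (SD, n = 2), and the log2 fold change was -0.32 (SE 0.10, 95% interval -0.53 to -0.11, limma adjusted p = 0.0208). The call was lost without sh-NC replicate 2 (-0.27, adjusted p = 0.0972), without sh-CEBPG#3 replicate 2 (-0.26, adjusted p = 0.114) and with no filter (adjusted p = 0.0645). For the most abundant MGA transcript alone the value turned to 0.12 (adjusted p = 0.757).

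In the glucose-responsive arm, MLX had 22.4 and 21.7 FPKM in the controls and 18.3 and 18.9 FPKM after knockdown. The libraries of each group lay close together and the groups were apart. The means were 22.1 ± 0.499 and 18.6 ± 0.432 FPKM (SD, n = 2), with a log2 fold change of -0.24 (SE 0.08, 95% interval -0.41 to -0.07, limma adjusted p = 0.0306). This call held in 7 of 14 alternatives, and the value was negative in all 14. Among those that lost it were the fits without sh-NC replicate 1 (-0.21, adjusted p = 0.0846), without sh-CEBPG#3 replicate 1 (-0.21, adjusted p = 0.161) and without sh-CEBPG#3 replicate 2 (-0.26, adjusted p = 0.0945). MLXIP, its partner, had 11.1 and 11.3 FPKM in the controls and 11.5 and 11.7 FPKM after knockdown. The difference was small beside its interval, with a log2 fold change of 0.04 (95% interval -0.14 to 0.22, limma adjusted p = 0.724).

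**Figure D2:**
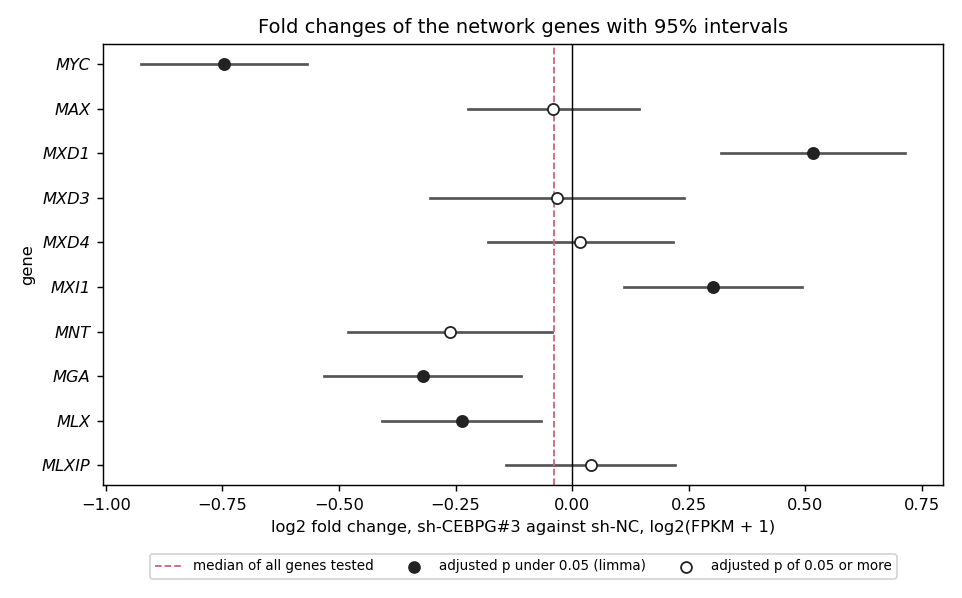
Log2 fold changes of the 10 network genes, sh-CEBPG#3 against sh-NC, on the log2(FPKM + 1) scale, with 95% intervals from limma. Filled points passed an adjusted p of 0.05, the dashed line marks the median of all genes tested (-0.04), and MYC and MXD1 lie farthest from it, on opposite sides.

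The changes of single members were set against each other as ratios of FPKM within a library. The ratio of MYC to the summed antagonists MXD1, MXD3, MXD4, MXI1 and MNT was 4.71 and 4.97 in the controls and 2.42 and 2.47 after knockdown. Its means were 4.84 ± 0.187 and 2.45 ± 0.0322 (SD, n = 2), a log2 difference of -0.98. The antagonists' sum itself was 46.0 and 50.03 FPKM in the controls and 57.6 and 55.3 FPKM after knockdown. Most of the difference in the ratio thus came from its numerator. The ratio of MYC to MAX was 16.4 and 19.1 in the controls and 10.6 and 11.1 after knockdown, so MYC mRNA exceeded MAX mRNA in all 4 libraries. MAX against the sum of its partners was 0.0490 and 0.0425 in the controls and 0.0649 and 0.0624 after knockdown. The ratio of MXD1 to MNT, which share MAX and the SIN3 corepressor, was 1.595 and 1.496 against 3.02 and 2.60. That of MLXIP to MLX was 0.497 and 0.522 against 0.630 and 0.617. Every one of these 5 ratios was separated between the groups, but so were 71.7% of the genes tested when taken singly. MYC enters the ratio to the antagonists, the ratio to MAX and the sum of MAX partners, so these ratios are not separate results. No test was made of the ratios, since an exact two-sided permutation test with 2 libraries per group cannot give a p under 1 in 3. They are ratios of mRNA, and protein was not measured.

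**Figure D3:**
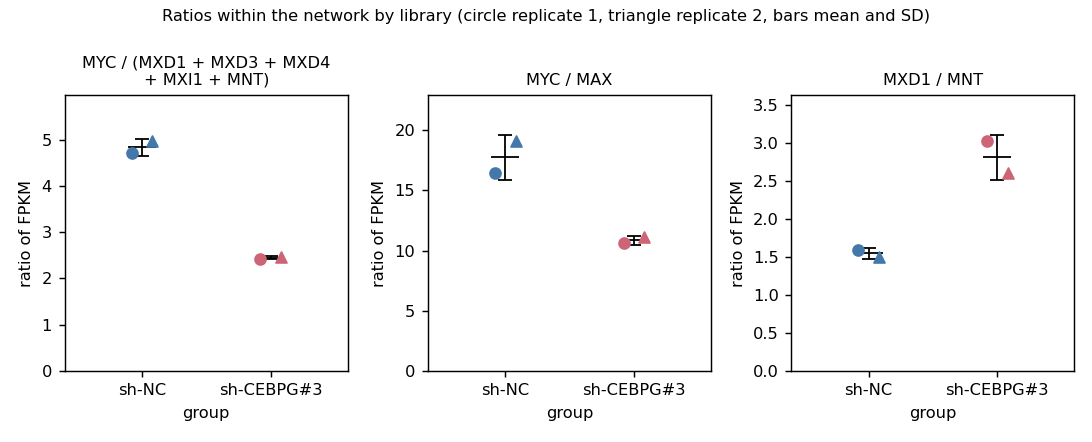
Ratios of FPKM within each library for MYC against the summed antagonists, MYC against MAX and MXD1 against MNT, in the 2 sh-NC and 2 sh-CEBPG#3 libraries, with means and SD. The first falls from a mean of 4.84 to 2.45, the second from 17.8 to 10.9, and the last stands at 1.55 in the controls and 2.81 after knockdown.

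The transcripts of the members were then read singly. Of the 22 RefSeq rows, 16 had a mean of at least 0.5 FPKM and were tested, and 1 was called, the MYC transcript (limma adjusted p = 0.0253). Among all 18624 transcripts tested, 8.24% were called, and with any single library left out 0 or 1 of all these transcripts were called. Of the 10 members, 5 are listed under 1 transcript, and for the other 5 the libraries of a group differed more by transcript than by gene. The gap between the libraries of a group on the log2 scale had a median of 0.32 over the 11 tested transcripts of these genes, against 0.10 over the sums of these 5 genes. Over all 5819 genes with several transcripts these medians were 0.22 and 0.09. The shares of transcripts below are therefore less certain than the sums.

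MAX was listed under 7 transcripts, and 2 of them held most of its FPKM. NM_145112 had 6.17 and 9.55 FPKM in the controls and 7.44 and 6.17 after knockdown. NM_002382 had 6.43 and 2.03 FPKM in the controls and 4.97 and 5.27 after knockdown. The split between the pair differed more between the control libraries, by 1.29 on the log2 scale for NM_002382, than between the groups, while the sum of all 7 transcripts differed by 0.02 between those controls. A further transcript, NM_145113, had between 0.0193 and 1.16 FPKM, and the other 4 stayed under 0.5 FPKM in every library.

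MLX was listed under 3 transcripts. The most abundant, NM_198204, had 17.98 and 16.7 FPKM in the controls and 12.5 and 16.03 after knockdown, and held 78.5% of the gene's FPKM in the controls and 76.7% after knockdown. NM_198205 had 3.61 and 1.91 FPKM in the controls and 0.706 and 0.432 after knockdown, so its share was 12.5% and 3.07% (log2 fold change -1.23, SE 0.29, limma adjusted p = 0.0819). NM_170607 had 0.845 and 3.09 against 5.04 and 2.43 FPKM. Only NM_170607 overlapped between the groups, and none of the 3 passed the test.

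MGA was listed under 2 transcripts that went apart. NM_001164273 had 4.26 and 3.93 FPKM in the controls and 5.54 and 3.66 after knockdown, and the groups overlapped (limma adjusted p = 0.757). NM_001080541 had 2.64 and 3.51 FPKM in the controls and 0.282 and 1.61 after knockdown, so that its share was 42.7% in the controls and 17.7% after knockdown. The knockdown libraries differed from each other by 1.03 on the log2 scale for this transcript, and its log2 fold change of -1.15 (SE 0.40) did not pass (limma adjusted p = 0.162). The lower sum of MGA thus lay in a transcript on which the libraries of a group differed widely.

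MXI1 was listed under 3 transcripts. NM_130439, with 65.2% of the gene's FPKM in the controls and 67.5% after knockdown, had 11.96 and 12.7 FPKM in the controls and 15.1 and 16.6 after knockdown, with no overlap (limma adjusted p = 0.102). NM_005962 had 5.87 and 7.22 against 9.34 and 6.05 FPKM and overlapped. NM_001008541 was at most 0.0698 FPKM in every library. The transcripts of MXD3 also overlapped, with 2.42 and 2.65 against 2.50 and 3.04 FPKM for NM_031300 and 1.70 and 0.983 against 0.787 and 1.25 FPKM for NM_001142935.

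**Figure D4:**
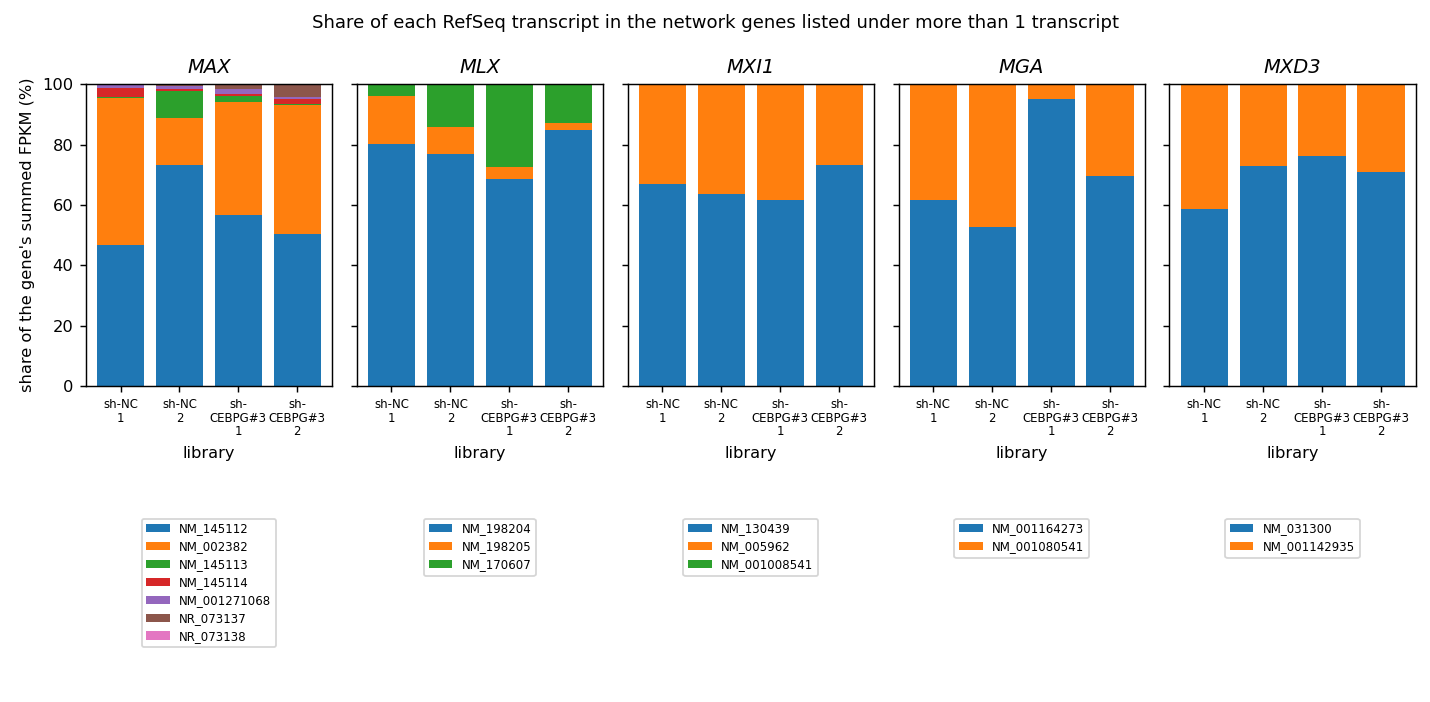
Share of each RefSeq transcript in the summed FPKM of MAX, MLX, MXI1, MGA and MXD3, in percent, with 1 bar per library. Shares differ between the libraries of a group as well as between groups, most plainly for NM_002382 of MAX in the controls, and NM_198205 of MLX is smaller in both knockdown libraries.

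Paralogs of the members were compared next. MYCL, a paralog of MYC that also pairs with MAX, was higher after knockdown, at 6.07 ± 0.291 FPKM against 2.22 ± 0.0624 FPKM in the controls (SD, n = 2). Its log2 fold change was 1.14 (SE 0.10, limma adjusted p = 1.72e-05), past the 2-fold threshold, and its level after knockdown was still far below that of MYC. MLXIPL, the paralog of MLXIP known as ChREBP, had 0.144 and 0.0457 FPKM in the controls and was listed at 0 in both knockdown libraries. MYCN was looked for by name, but no values were found, so its level is unknown here.

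Genes that textbooks give as targets of MYC were mostly lower. Of 60 such genes, 36 were called (60%, beside 42.2% of all genes tested), 35 lower and 1 higher, with a median log2 fold change of -0.29 against -0.04 over all genes tested. The largest decreases were those of TERT, the catalytic subunit of telomerase (6.77 to 2.73 FPKM, log2 fold change -1.06), MCM4, a subunit of the replicative helicase (78.1 to 37.4 FPKM, -1.04), UNG, a uracil-DNA glycosylase (33.3 to 16.1 FPKM, -1.0003), and FARSA (-0.89). TERT, MCM4 and UNG were the 3 that passed the 2-fold threshold. CCND2, a cyclin of the G1 phase, was the called gene that rose (7.26 to 8.85 FPKM, 0.26, limma adjusted p = 0.0479). The other 24 genes did not pass. Without sh-CEBPG#3 replicate 2, 20 of the 60 were called, all lower, a share close to the 3876 of 12142 genes called in that fit. In the other alternatives between 29 and 47 were called, with 0 to 6 of them higher. Lists were described by counts and medians only, with no test of a list as a set. Like the members, they were chosen with earlier results of these data known.

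Of 9 tested genes described as repressed by MYC, 5 were called higher and 2 lower, beside 18.5% and 23.8% of all genes tested, with a median log2 fold change of 0.25. CDKN1A, the inhibitor of cyclin-dependent kinases called p21, rose from 174 ± 6.66 to 334 ± 11.5 FPKM (SD, n = 2, log2 fold change 0.94, limma adjusted p = 5.91e-06). CDKN1B (p27) rose by 0.44 on the log2 scale. CDKN1C (p57) was also called (0.55), at 0.435 FPKM in the controls and 1.10 FPKM after knockdown, but its control mean lay under the filter of 0.5 FPKM, so it was tested only through the group in which it was higher. GADD45B, a stress-response gene, rose by 0.28. NDRG1, a gene induced by hypoxia and differentiation, and CDKN2C, the inhibitor called p18, went the other way, with log2 fold changes of -0.60 and -0.58. KLF6 (0.24) and NDRG2 (-0.16) did not pass. Over the alternatives that kept all 4 libraries, called genes numbered between 6, as with no trend, and 8, as under quantile normalization. In those fits 4823 and 5751 of 12142 genes at large were called. With a library left out the median ranged from 0.23 to 0.29.

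The corepressor that the MXD proteins and MNT bring to DNA was lower in several subunits. Of 16 SIN3-HDAC genes, 7 were called lower and 2 higher, beside 23.8% and 18.5% of all genes tested. The median log2 fold change was -0.24, and -0.12 without sh-CEBPG#3 replicate 2. HDAC1, a histone deacetylase, had 76.0 and 52.6 FPKM in the means of the groups (-0.52). BRMS1 (-0.42), the histone chaperone RBBP4 (-0.40) and the scaffold SIN3A (-0.39) were also lower. BRMS1L (0.44) and ARID4B (0.34) were higher. The scaffold SIN3B had a log2 fold change of 0.06 and HDAC2 of -0.10, and neither passed the test. Over the alternatives that kept all 4 libraries, between 6 (no filter) and 11 (equal totals) of these genes were called. In those fits 4093 of 16490 and 5849 of 12142 genes at large were called.

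Among 24 genes of MYC coactivators and cofactors, 11 were called lower and 3 higher, beside 23.8% and 18.5% of all genes tested, with a median of -0.21. The largest decreases were those of MBTD1, a subunit of the TIP60 acetyltransferase complex (10.6 to 5.86 FPKM, -0.76), HCFC1, a chromatin cofactor (-0.56), SMARCB1, a SWI/SNF subunit (-0.53), and CCNT1, the cyclin of the elongation factor P-TEFb (-0.46). CDK9, the kinase of the same factor, rose (0.35), as did DMAP1 (0.34) and the elongation factor SUPT5H (0.27). Without sh-CEBPG#3 replicate 2, 7 of the 24 were called, a share under that of all genes in the same fit (3876 of 12142). Of the acetyltransferases in the list, KAT5 was called lower (-0.31), while EP300 (-0.04), KAT2A (-0.03) and CREBBP (-0.12) did not pass.

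Of 19 genes whose proteins stabilize or destabilize MYC, 4 were called lower and 1 higher, a share under that of genes at large, with a median of -0.11. GSK3A, a kinase that marks MYC for degradation, fell from 24.0 to 14.2 FPKM (-0.72). CIP2A, which protects MYC from the phosphatase PP2A, was lower by -0.45, FBXL14, a ubiquitin ligase subunit, by -0.44 and the nucleolar deubiquitinase USP36 by -0.30. USP22, a deubiquitinase, was higher (0.26). The ubiquitin ligase genes FBXW7 (0.09), SKP2 (0.05) and HUWE1 (-0.14) did not pass. Without sh-CEBPG#3 replicate 2 the median was -0.07. With totals scaled to be equal, 10 of the 19 were called, beside 5849 of 12142 genes. In that fit the share was thus not under that of genes at large.

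Of the 9 tested genes for PRC1.6 partners of MGA, 2 were called (22.2%, beside 42.2% of all genes tested), both lower: TFDP1, a partner of E2F proteins (111 to 79.0 FPKM, -0.49), and RING1, a Polycomb ubiquitin ligase (3.89 to 2.51 FPKM, -0.48). The median was -0.05, and it was -0.17 without sh-NC replicate 1 and 0.01 without sh-CEBPG#3 replicate 2. L3MBTL2, PCGF6 and E2F6, the subunits by which this complex is known, had log2 fold changes of 0.09, -0.19 and -0.05 and did not pass.

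Of the 3 targets of MLXIP and MLX, 1 was called (33.3%, beside 42.2% of all genes tested). This was TXNIP, the thioredoxin-interacting protein that restrains glucose uptake. It rose from 94.2 ± 4.51 to 138 ± 5.78 FPKM (SD, n = 2, log2 fold change 0.55, limma adjusted p = 0.000256). KLF10 had a log2 fold change of 0.23 (limma adjusted p = 0.0501), and ARRDC4, an arrestin-domain gene, of 0.03 (limma adjusted p = 0.883). With a filter at a mean of 1 FPKM, equal totals, quantile or median-ratio scaling, 2 of the 3 were called.

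**Figure D5:**
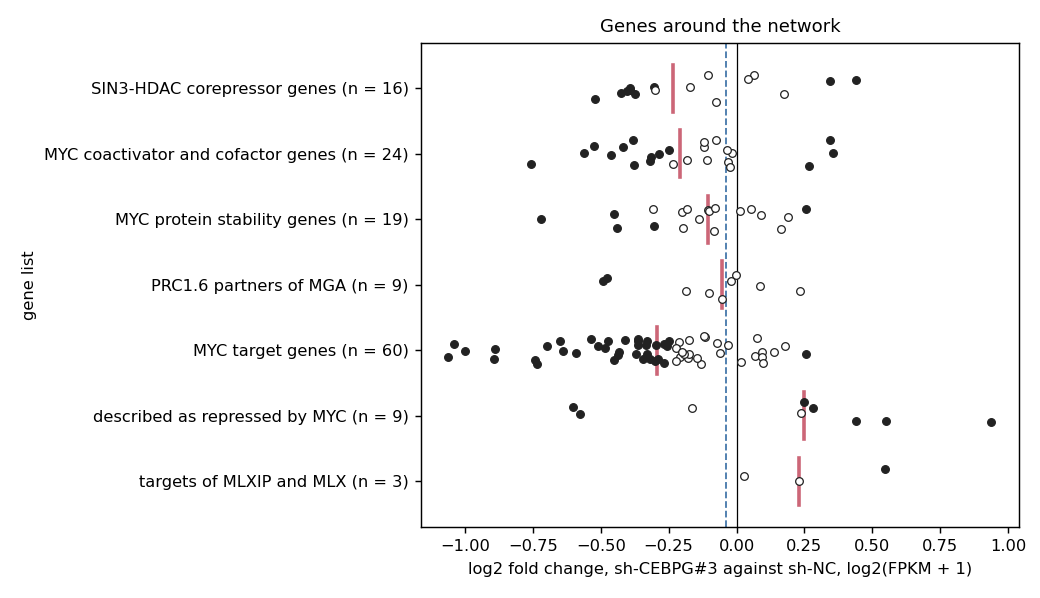
Log2 fold changes, sh-CEBPG#3 against sh-NC, of the tested genes in 7 lists around the network, on the log2(FPKM + 1) scale, with filled points for an adjusted p under 0.05. Red bars mark each list's median, from -0.29 for MYC targets to 0.25 for genes described as repressed by MYC, and the dashed line marks the median of all genes tested (-0.04).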

How the data were processed

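The values are FPKM per RefSeq transcript and library, made and deposited by the authors from filtered reads of MV4-11 cells. HISAT2 2.0.5 and hg38 are named in the submitters' processing notes, and the program that computed FPKM is not given in the sources used here. Of 28780 listed transcripts, 199 have no value. FPKM carry no counts, so no count test, interval of counting error or detection floor is given. Among 565 transcripts under 0.06 FPKM, at most 1.42% shared a ratio between libraries, so whole reads could not be recovered.

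FPKM was summed by symbol, and 12142 genes, whose mean reached 0.5 FPKM, were compared with limma 3.58.1 (lmFit, eBayes with a trend) in R 4.3.3 on log2(FPKM + 1), which understates changes of low genes. P-values were adjusted over all genes by the Benjamini-Hochberg method. The fit was tested on simulated data. Members and lists were chosen with earlier results of these data known. Named were all members with every transcript, and per list at most 4 called genes in each direction. Genes named beside these, as not passing or, for KAT5, as called, were chosen after their values were seen. Gene names come from the deposited table, and motifs were counted with Python 3.11.15 in the RefSeq promoter table. Same-numbered libraries were not paired by any label. The alternatives were other pseudocounts, filters and scalings, a replicate block, no trend, single transcripts and each library left out. With a library left out, the lone library is assumed to vary like the other group.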

Additional observations from a re-analysis of the deposited data

How the results depend on the processing

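Over the alternatives MYC was always past the threshold and negative, and MXD1 was always positive and lost its call only when single transcripts were tested (0.52). The calls of MXI1, MGA and MLX depended on the setting. With no filter 3 members were called in place of 5, with MXI1 at 0.30 and MGA at -0.32 no longer called. Of all genes, 4093 of 16490 were called in that fit, in place of 5128 of 12142. For the most abundant transcript MXI1 (0.34) and MLX (-0.27) were not called, and MGA (0.12) and MXD3 (0.089) changed sign. MLX was also not called under median-ratio scaling (-0.19), with no trend (-0.24) or with the replicate number as a block (-0.24). With the block, 4761 genes (5128 without it) and 112 transcripts were called. Over the genes tested, the difference between replicates 1 and 2 in sh-NC correlated at 0.0606 with that in sh-CEBPG#3. The numbers are therefore not taken as pairs. MNT was called with a filter at 1 FPKM (-0.26) and with equal totals (-0.28). Uncalled values changed sign for MXD4 with equal totals (-0.0052), for MXD3 under quantile (0.0020) and median-ratio scaling (0.0035), and for MAX under median-ratio scaling (0.0010). With a library left out, the members called ranged from 3 to 4, the list genes called ranged from 45 (without sh-CEBPG#3 replicate 2) to 78, and the log2 fold changes ranged from 0.23 to 0.38 for MXI1, -0.38 to -0.26 for MGA, -0.35 to -0.17 for MNT, -0.26 to -0.21 for MLX, -0.031 to 0.066 for MXD4, -0.18 to 0.12 for MXD3 and -0.087 to 0.0064 for MAX. Calls of single transcripts (1534) fell to 0 to 1 with a library left out, to 790 with no filter and to 288 with no trend, and rose to 2630 with equal totals, 2556 under quantile and 2467 under median-ratio scaling. Genes past 2-fold numbered 414, and 827 and 882 with pseudocounts of 0.1 and 0.01. Where no cause is given, the cause was not tested. Depth is unknown, and the precision rests on 2 libraries per group and 1 hairpin.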
